A study of Mus musculus with 6 samples.

Results

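The Bcl2 family decides at the mitochondrial membrane whether a stressed cell lives or dies. The genes followed here were 10 of its best known mouse members: the pro-survival genes Bcl2, Bcl2l1 (Bcl-xL) and Mcl1, the effectors Bax and Bak1, and the BH3-only genes Bcl2l11 (Bim), Bid, Bad, Bbc3 (Puma) and Pmaip1 (Noxa). Every probe set that the array annotation pairs with a single member was kept, whatever its signal. That gave 29 of the 45037 probe sets that are not array controls, for 9 of the 10 genes. Bax was not analysed here, since the annotation used pairs no probe set with it alone.

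The samples were whole frozen spleens of male C57BL/6J mice that entered the study at 8 weeks of age and were kept specific pathogen free. For 15 weeks, 3 garlic-fed mice received a semi-purified diet with 4% lyophilized raw garlic powder, and 3 control mice received that diet with 4% cellulose in its place. Total RNA of each spleen was measured on its own Affymetrix array, and each value is a MAS5 signal, an intensity that summarises the short probes of a probe set on a linear scale. Both groups shared strain, sex, age and basal diet, so that diet was the labelled difference.

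Pro-survival members hold Bax and Bak1 in check. Once freed, these effectors open the outer mitochondrial membrane, cytochrome c escapes and caspases are activated. BH3-only proteins carry the death signals, either by binding the pro-survival proteins or by activating the effectors. In the spleen, Bcl2 and Mcl1 keep mature lymphocytes alive, Bim removes self-reactive and surplus lymphocytes, and Bcl-xL protects late red cell precursors.

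No Bcl2 family probe set passed an adjusted p of 0.05 between garlic-fed and control spleens, with correction over all probe sets. Of the 28 that passed a filter on mean signal (mean log2 signal above 6.08), 0 had an adjusted p under 0.05 in limma. Among all 27022 probe sets tested the share was 0.237%, so a count of 0 lies near it and does not set the family apart. Without adjustment, 1 probe set passed 0.05 with higher signals in garlic-fed mice, that of Bcl2l11, and 0 passed with lower signals. The background was 5.58% of all probe sets on the higher side and 5.44% on the lower, so the family's count lies near it. Log2 differences (garlic-fed minus control) ran between -1.00 and 0.43 with a median of 0.01, against a median of -0.03 over all probe sets tested. They were above 0 for 15 and below 0 for 13, against 17 and 11 under quantile normalization and 21 and 7 when each array was centred on its median. The split thus depended on the scaling. Among all probe sets tested, the share above 0 moved likewise, with 43.5%, 47.2% and 58.7% under the 3 scalings.

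**Figure D1:**
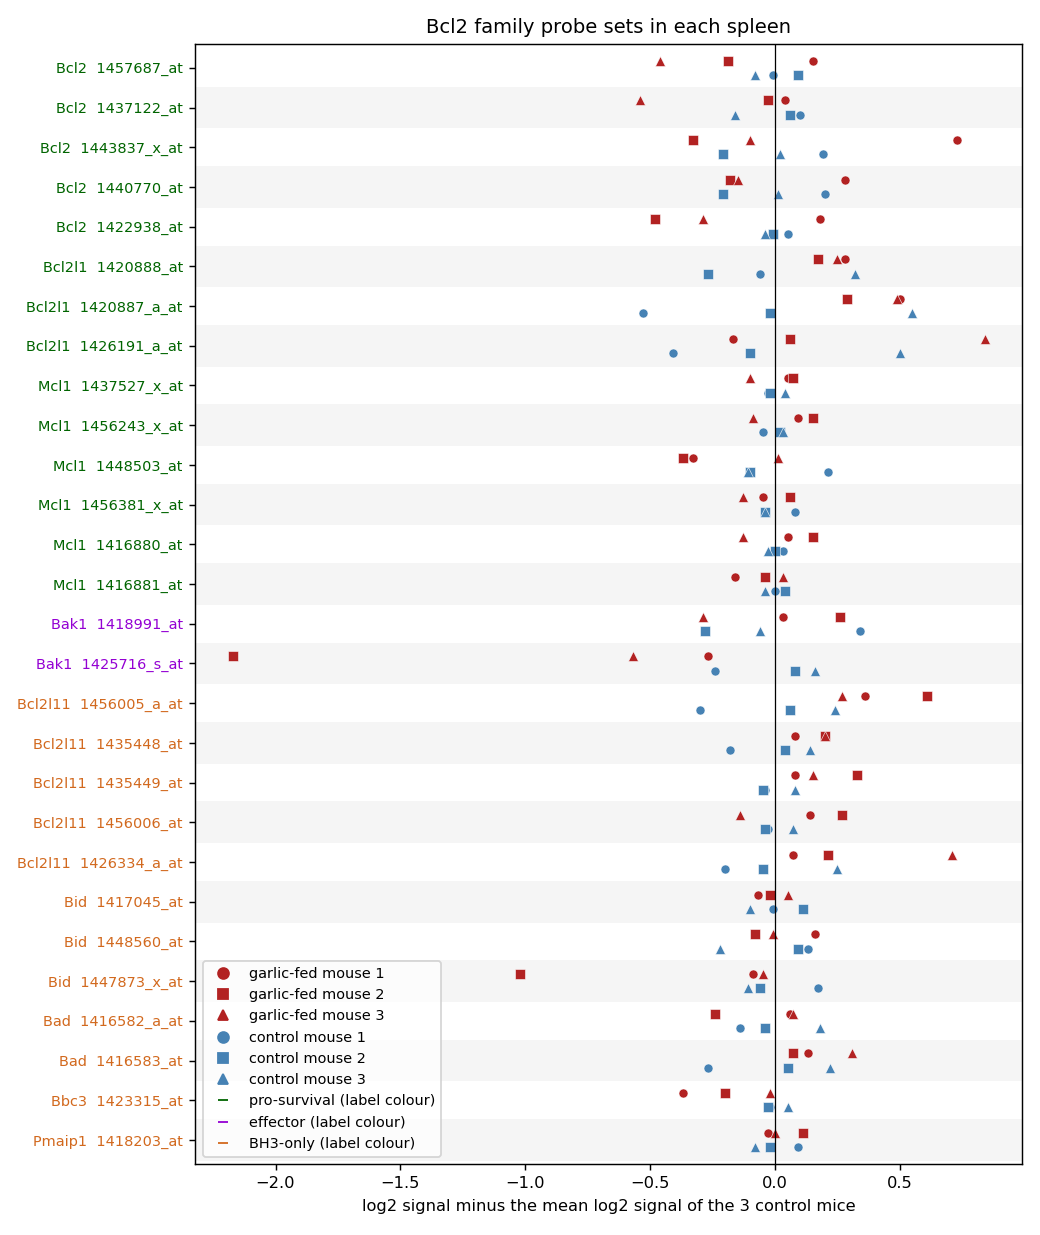
Log2 signal of the 28 Bcl2 family probe sets tested in each spleen, as the distance from the mean of the 3 control mice (x axis), with garlic-fed mice in red above control mice in blue on each line and signals under the floor drawn at the floor. Most points of both diets lie within 0.5 of the control mean, and the point farthest out is garlic-fed mouse 2 for Bak1 1425716_s_at at -2.17.

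These spleens carried the RNA of several cell types, and in whole tissue fewer cells of a type and less RNA per cell cannot be told apart. B cell markers (8 of 9 listed genes measured) summed to 54204 to 63085 in garlic-fed and 59726 to 66582 in control spleens, and T cell markers (8 of 9) to 15070 to 17365 in garlic-fed and 16860 to 18288 in control spleens, so lymphocyte markers were bright in every spleen. Erythroid markers (13 of 16, with 12 tested) summed to 59134 to 81996 in garlic-fed and 37344 to 46874 in control spleens, and 4 of the 12 rose at the adjusted threshold. Pancreatic enzyme genes summed to 2102, 34001 and 2285 in garlic-fed mice 1 to 3, and to 131250, 17190.0 and 61902 in control mice 1 to 3. Fat tissue genes (6 of 8 measured) summed to 19975, 20860 and 9001 in garlic-fed mice 1 to 3, and to 10755 to 11332 in control mice, so garlic-fed mice 1 and 2 stood apart. Array medians were 119.7 to 128.8 in garlic-fed and 127.9 to 132.2 in control spleens. Family probe sets took 0.228% to 0.241% of the total signal of each garlic-fed array and 0.236% to 0.239% of each control array.

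Bcl2, the founding pro-survival member, had 5 probe sets, all tested. Its brightest, 1457687_at, gave signals of 2489.6, 1968.0 and 1634.4 in garlic-fed mice 1 to 3, against 2226.6, 2394.0 and 2122.8 in control mice 1 to 3. The garlic-fed mice spanned the whole range, with both the highest and the lowest spleen, and the groups overlapped. The log2 difference was -0.17 ± 0.14 (SE), with a 95% interval of -0.48 to 0.15 and an adjusted p of 0.737 in limma. Without garlic-fed mouse 1 it was -0.32 (adjusted p 0.353), and without garlic-fed mouse 3 it was -0.02. The probe set 1437122_at gave 1015.3, 963.3 and 679.0 in garlic-fed mice, against 1056.3, 1029.5 and 880.0 in control mice. Here garlic-fed mouse 3 alone lay under the lowest control (log2 difference -0.18, adjusted p 0.762). The 3 dimmer probe sets had log2 differences of -0.20, -0.01 and 0.10, with adjusted p between 0.757 and 0.987, and the one at -0.01 turned to 0.00 under quantile normalization and to 0.06 under median centring. Garlic-fed mouse 1 was the highest of all 6 spleens on 4 of the 5 Bcl2 probe sets.

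Bcl2l1 encodes Bcl-xL, the pro-survival protein that late erythroid cells depend on, and 3 of its 4 probe sets were tested. The brightest, 1420888_at, gave 1732.5, 1604.2 and 1701.0 in garlic-fed mice, against 1371.2, 1187.2 and 1786.6 in control mice. Control mice 1 and 2 were below all garlic-fed mice, but control mouse 3 was the highest of all, so the groups overlapped. The log2 difference was 0.23 ± 0.14 (interval -0.08 to 0.55, adjusted p 0.607). On 1420887_a_at the signals were 488.7, 424.3 and 486.3 in garlic-fed mice, against 238.9, 341.7 and 507.6 in control mice. Again control mouse 3 stood above every garlic-fed mouse, with a log2 difference of 0.43 ± 0.24 between groups (interval -0.10 to 0.96, adjusted p 0.564). Without control mouse 1 that difference was 0.16, and without control mouse 3 it was 0.70 with an adjusted p of 0.275. The third, 1426191_a_at, gave 173.4, 203.6 and 349.6 in garlic-fed mice, against 147.2, 182.5 and 276.8 in control mice (log2 difference 0.24, adjusted p 0.836). All 3 differences were above 0 under each of the 3 scalings, but single mice set their size, and all 3 intervals held 0. Without garlic-fed mouse 3 the log2 difference of 1426191_a_at was -0.05, and without control mouse 1 it was 0.04. That of 1420888_at was 0.10 without control mouse 2 and 0.40 without control mouse 3. The Bcl2l1 probe set 1426050_at was too dim to test, with signals of 37.0, 6.8 and 4.6 in garlic-fed mice, against 44.5, 8.1 and 34.4 in control mice, 3 of them under the floor of 23.5. With a mean log2 signal of 4.91 it was the only family probe set under the filter.

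Mcl1, a short-lived pro-survival protein that lymphocytes and blood stem cells need, had 6 probe sets, all bright. The brightest, 1437527_x_at, gave 15126.0, 15375.7 and 13700.4 in garlic-fed mice, against 14380.0, 14469.1 and 15108.1 in control mice. The spleens of both diets were mixed along this range. The log2 difference was 0.01 ± 0.07, and its interval of -0.15 to 0.16 covered folds of 0.9 to 1.12 (adjusted p 0.985). Of the other 5 probe sets, 1448503_at lay farthest from 0, with 9982.6, 9732.8 and 12634.8 in garlic-fed mice, against 14534.8, 11766.4 and 11654.9 in control mice. Garlic-fed mice 1 and 2 were below every control there, while garlic-fed mouse 3 was above control mice 2 and 3. Its log2 difference was -0.23 ± 0.12 (interval -0.50 to 0.03, adjusted p 0.515). The remaining 4 differed by -0.06 to 0.05, and 2 of these 4 were below 0 in the main scaling but above 0 under median centring, 1416881_at at 0.02 and 1456381_x_at at 0.04. The difference of 1448503_at was -0.13 without control mouse 1, -0.35 (adjusted p 0.172) without garlic-fed mouse 3, and -0.06 without the most pancreatic spleen of each group (garlic-fed mouse 2 and control mouse 1), where the other 5 lay between -0.07 and -0.02. That pair held the lowest and the highest spleen on 1448503_at, so its difference had to shrink there. The 2 lowest spleens on 1448503_at were garlic-fed mice 1 and 2, the ones with the highest fat tissue sums, whose part in these signals was not tested. In Affymetrix naming, probe sets ending in _x_at, 3 of the 6 here, contain probes that can match other transcripts, and those ending in _s_at match several transcripts.

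Bak1, the effector that sits on mitochondria in healthy cells, had 2 probe sets. The brighter, 1418991_at, gave 484.4, 567.7 and 389.4 in garlic-fed mice, against 601.4, 392.2 and 455.5 in control mice. These values overlapped fully, and the log2 difference was 0.00 ± 0.19 in size (interval -0.43 to 0.43, adjusted p 0.998). The dimmer, 1425716_s_at, gave 87.5, 12.5 and 71.3 in garlic-fed mice, against 89.5, 111.5 and 118.2 in control mice. Every garlic-fed spleen was below every control spleen on it, by a margin of 87.5 against 89.5 at the closest. The log2 difference was -1.00 ± 0.47 (interval -2.05 to 0.04, adjusted p 0.478). The floor set its size, since it was -0.44 with the floor at the 40th percentile and -1.31 with none. Garlic-fed mouse 2 was under the floor, and without that mouse the log2 difference was -0.42 with an adjusted p of 0.801. This probe set had a mean log2 signal of 6.22, just above the filter, and was the only 1 of the 28 that passed it through a single group, with group means of 5.72 in garlic-fed and 6.72 in control mice. It was the only family probe set with all garlic-fed signals below all control signals, where 9.29% of all probe sets tested had that order.

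Bcl2l11 encodes Bim, the BH3-only protein that binds every pro-survival member and sets the lifespan of lymphocytes. Its transcription is known to be raised by FOXO factors, and for that reason a Bcl2l11 promoter with forkhead letters is shown (RefSeq, build GRCm38.p6, chr2:128125788-128126087, + strand, 300 bases that end 50 bases after a start site, with the letters GTAAACA in capitals).

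Bcl2l11: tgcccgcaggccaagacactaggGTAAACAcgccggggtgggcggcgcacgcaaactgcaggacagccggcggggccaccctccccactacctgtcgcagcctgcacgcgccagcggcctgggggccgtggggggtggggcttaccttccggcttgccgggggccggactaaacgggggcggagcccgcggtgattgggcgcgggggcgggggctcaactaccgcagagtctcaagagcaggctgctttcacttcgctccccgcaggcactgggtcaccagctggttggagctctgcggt

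The letters GTAAACA occurred once in this window, starting 227 bases before the start site, and in 1 of the 2 Bcl2l11 windows. Both strands were searched, and 3.65% of all 32851 RefSeq promoter windows of this length hold them, among them 2 of the 15 windows of family genes (Bcl2l11 and Bbc3). A match to these letters is not evidence of a bound factor.

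Of all members, Bcl2l11 had the probe set with the lowest p. That probe set, 1456005_a_at, was also its brightest and gave 3734.7, 4429.0 and 3503.6 in garlic-fed mice, against 2353.6, 3031.7 and 3441.9 in control mice. All garlic-fed spleens were above all control spleens, with garlic-fed mouse 3 only just above control mouse 3. Group means were 3889 ± 482 in garlic-fed mice and 2942 ± 550 in control mice (SD, n = 3 each). The fold was 1.33, as a log2 difference of 0.41 ± 0.14 with an interval of 0.10 to 0.73, and limma's unadjusted p was 0.0159. After adjustment over the 27022 probe sets p was 0.308, and 1395 other probe sets had a lower p. Under the 17 alternative settings the log2 difference stayed between 0.16 and 0.53, and its unadjusted p was under 0.05 in 10 of them. Without control mouse 1 it was 0.26 (adjusted p 0.729), and without garlic-fed mouse 2 it was 0.32 (adjusted p 0.643).

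Control mouse 1 held the lowest Bcl2l11 signal and, with 131250, the highest pancreatic sum. When the most pancreatic spleen of each group was left out (garlic-fed mouse 2 and control mouse 1), 2 mice a group remained. The log2 difference of 1456005_a_at was then 0.16, with an adjusted p of 0.997. The 2 spleens left out were also the highest and the lowest on it, so the difference had to shrink whatever their pancreatic RNA. Garlic-fed mice 1 and 2, with the highest fat tissue sums, were also the 2 highest spleens on this probe set. The part of pancreatic, fat tissue and erythroid RNA in these Bcl2l11 signals was not tested.

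The other 4 Bcl2l11 probe sets had smaller log2 differences, all above 0. On 1435449_at the signals were 795.6, 942.4 and 830.9 in garlic-fed mice, against 732.0, 725.2 and 795.0 in control mice. These groups touched without overlapping, 795.6 against 795.0 (log2 difference 0.19 ± 0.12, adjusted p 0.618). So 2 of the 28 family probe sets, both of Bcl2l11, had every garlic-fed signal above every control signal, an order found in 7.52% of all probe sets tested. The probe set 1435448_at gave 1808.2, 1955.1 and 1959.8 in garlic-fed mice, against 1500.8, 1758.3 and 1881.3 in control mice. Only garlic-fed mouse 1 fell within the control range (log2 difference 0.16, adjusted p 0.650). The 2 dimmest had log2 differences of 0.09 and 0.33 with adjusted p of 0.885 and 0.642. All 5 differences were above 0 under the 3 scalings, and control mouse 1 was the lowest of the 6 spleens on 3 of the 5 probe sets. Without the most pancreatic spleen of each group they were 0.05 for 1435448_at, 0.10 for 1435449_at and -0.02 for 1456006_at, so the shared sign did not hold. Garlic-fed mouse 2, left out there with control mouse 1, was the highest spleen on 3 of the 5 probe sets, so smaller differences were favoured. Probe sets of a gene share the same RNA and are not independent measurements.

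Bcl2l1 has 3 RefSeq promoter windows, and the one with GATA letters is shown because GATA1, the master regulator of red cell development, is known to raise Bcl-xL in erythroid cells (GRCm38.p6, chr2:152828440-152828739, - strand, printed 5′ to 3′ along the gene, AGATAA in capitals).

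Bcl2l1: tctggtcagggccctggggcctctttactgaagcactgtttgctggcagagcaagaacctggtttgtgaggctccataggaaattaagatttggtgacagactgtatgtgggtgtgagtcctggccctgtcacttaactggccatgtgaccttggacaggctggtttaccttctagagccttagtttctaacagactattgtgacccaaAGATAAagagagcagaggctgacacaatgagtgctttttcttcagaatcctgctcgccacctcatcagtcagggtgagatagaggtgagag

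AGATAA occurred once there, starting 41 bases before the start site, on the strand of the gene. It was in 1 of the 15 family windows and in 11.2% of all windows. The other letters searched on both strands were TTTCGCG for E2F, in 1 family window (Bcl2l1) and 0.849% of all, TTCCNGGAA for STAT factors, in 0 and 1.15%, CACGTG (E-box), in 2 and 7.15%, and GGGCGG (GC box), in 10 and 35.7%. None of these strings contains another.

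Bid, which caspase 8 cuts to link death receptors to mitochondria, had 3 probe sets. The brightest, 1417045_at, gave 1370.8, 1422.9 and 1486.0 in garlic-fed mice, against 1430.2, 1549.3 and 1342.0 in control mice. The diets were interleaved, with a log2 difference of -0.01 (adjusted p 0.980) that turned to 0.07 under median centring. On 1447873_x_at the signals were 187.9, 98.8 and 194.1 in garlic-fed mice, against 225.8, 192.5 and 185.8 in control mice. Garlic-fed mouse 2 alone was low, the spleen that was also lowest for Bak1 1425716_s_at, and the log2 difference was -0.39 (adjusted p 0.663), or -0.07 without that mouse. The third Bid probe set differed by 0.02.

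Bad, whose binding to Bcl-xL is blocked by survival kinases, had 2 probe sets. On 1416582_a_at the signals were 578.9, 471.7 and 583.0 in garlic-fed mice, against 505.5, 540.6 and 629.3 in control mice, and on 1416583_at they were 371.0, 356.4 and 419.1 in garlic-fed mice, against 280.2, 350.5 and 394.6 in control mice. Both overlapped between diets. The log2 differences were -0.04 (adjusted p 0.954), which became 0.04 under median centring, and 0.17 (adjusted p 0.773).

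Bbc3 encodes Puma, a BH3-only protein that p53 induces. Its probe set 1423315_at gave 311.2, 348.4 and 396.0 in garlic-fed mice, against 395.7, 392.0 and 415.5 in control mice. Garlic-fed mice 1 and 2 were below all controls, while garlic-fed mouse 3 lay within them. The log2 difference was -0.20 ± 0.15 (interval -0.52 to 0.13, adjusted p 0.687).

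Pmaip1 encodes Noxa, which neutralises Mcl1. Its probe set 1418203_at gave 1548.9, 1704.3 and 1577.4 in garlic-fed mice, against 1687.5, 1561.6 and 1501.3 in control mice, and the groups overlapped. The log2 difference was 0.02 ± 0.10 with an interval of -0.19 to 0.24 (adjusted p 0.955).

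**Figure D2:**
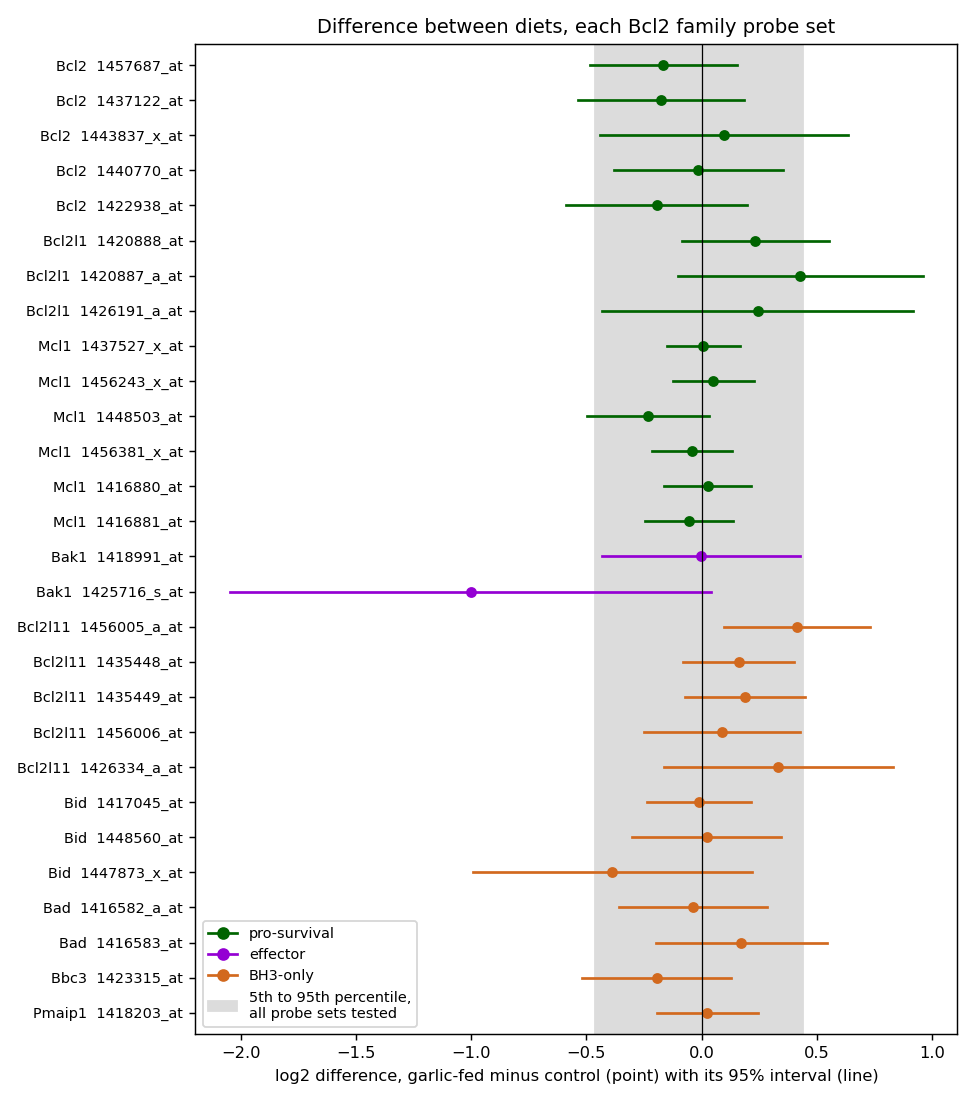
Log2 difference between garlic-fed and control spleens (x axis) of each Bcl2 family probe set tested, as a point with its 95% interval from limma, over a grey band from the 5th to the 95th percentile of all probe sets tested (-0.46 to 0.44). The interval of Bcl2l11 1456005_a_at is the only one of 28 that leaves out 0, and Bak1 1425716_s_at is the only point outside the band.

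How large a change could have been missed differed between members. For 24 of the 28 probe sets the 95% interval lay within 1.8-fold in both directions, and for 20 within 1.5-fold. The 4 with wider intervals were Bcl2l1 1420887_a_at and 1426191_a_at, Bak1 1425716_s_at and Bid 1447873_x_at, whose mean log2 signals were 8.65 or lower. The narrowest interval was that of Mcl1 1437527_x_at, the brightest family probe set. With 3 arrays a group the smallest p an exact permutation test can give is 0.1. The spread was pooled over probe sets in limma because 3 arrays a group say little about the spread of a single probe set. The intervals rest on this pooled spread and on the main scaling, and were not counted under other settings.

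**Figure D3:**
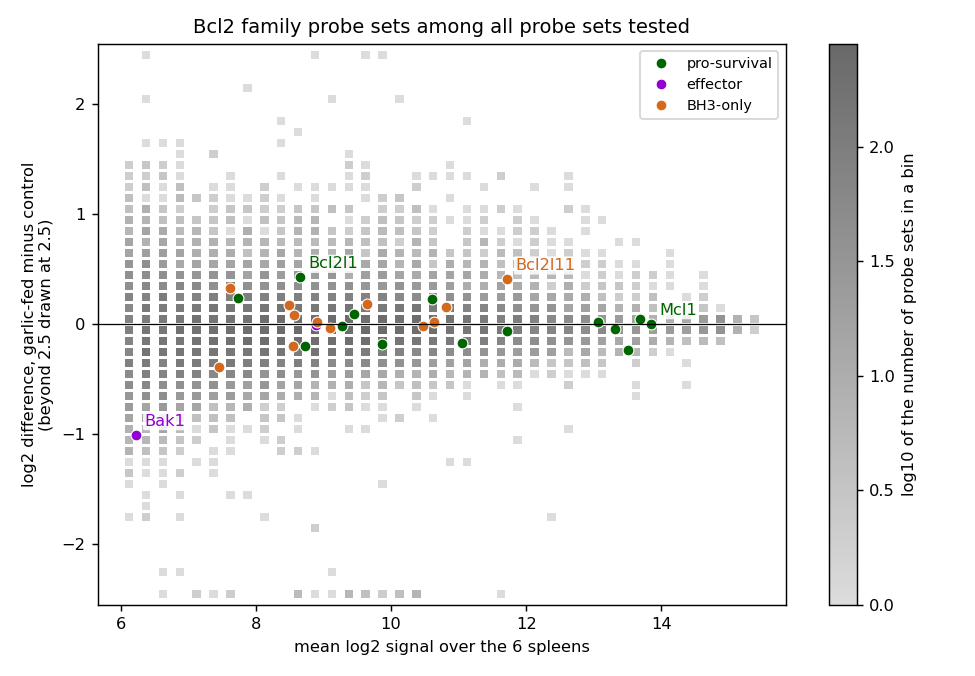
Log2 difference (y axis, garlic-fed minus control) against mean log2 signal over the 6 spleens (x axis), with all 27022 probe sets tested as grey bins and the 28 Bcl2 family probe sets as coloured points by role. The family points lie inside the grey cloud at every signal level, with Bak1 1425716_s_at at the dim edge (-1.00).

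Beyond these members, the wider Bcl2 family, the machinery downstream and known regulators were read from lists, with each gene represented by its brightest probe set. Over all probe sets tested, 7.52% had every garlic-fed signal above every control signal, and 9.29% had every one below. The other family list (18 genes, 10 tested) had a median log2 difference of 0.05. In it 1 gene, Bcl2l13, had an unadjusted p under 0.05 on the higher side, against 5.58% of all probe sets tested. Bcl2l13, a mitochondrial protein that acts as a mitophagy receptor, gave 703.2, 733.8 and 728.6 in garlic-fed mice, against 500.9, 561.1 and 608.5 in control mice. No garlic-fed spleen reached down to the controls (log2 difference 0.38 ± 0.12, adjusted p 0.277), and its second probe set 1424406_at had the same log2 difference of 0.38 (adjusted p 0.449).

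Becn1 encodes Beclin 1, the autophagy protein that Bcl2 and Bcl-xL bind, and its probe sets disagreed. The brightest, 1455880_s_at, gave 4072.9, 3873.3 and 4623.2 in garlic-fed mice, against 4764.8, 3936.7 and 4255.3 in control mice (log2 difference -0.04, adjusted p 0.919). On the dim 1435219_x_at, singled out after its values were seen, signals were 272.3, 240.4 and 207.4 in garlic-fed mice, against 40.2, 37.7 and 19.7 in control mice. All garlic-fed mice were above all controls there, and the control signals were near the floor, with 1 of 3 under it. It passed the filter through the garlic-fed mice alone (group means of 7.90 in garlic-fed and 5.04 in control mice on the log2 scale), so it had to differ, and the size of its log2 difference depended on the floor, at 2.86 ± 0.30 (adjusted p 0.0123) and at 1.70 with the floor at the 40th percentile. The other 2 tested Becn1 probe sets differed by 0.03 and -0.26. The adjusted p of 1435219_x_at was under 0.05 in 10 of 16 alternatives and between 0.063 and 0.35 in the rest. Among these were 0.0647 without control mouse 1 and 0.063 without control mouse 2. No support is drawn from these p-values, since the probe set was picked by its values and favoured by the filter.

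In the mitochondrial death machinery (30 genes, 28 tested) 0 genes passed the adjusted threshold, with a median log2 difference of 0.00. Without adjustment, 1 gene passed 0.05 above the controls and 2 below them, near the background of 5.58% and 5.44% of all probe sets tested. The higher was Birc5 (survivin), a mitotic protein that is also counted among the inhibitors of apoptosis, with 4310.6, 5188.6 and 6031.5 in garlic-fed mice, against 2817.0, 3084.2 and 3755.8 in control mice. Its groups were fully apart (log2 difference 0.68 ± 0.14, adjusted p 0.096). Markers of dividing cells moved beside it, since 2 of their 7 tested genes rose at the adjusted threshold and their signals summed to 21234 to 28287 in garlic-fed and 15510 to 17163 in control spleens; their part in the Birc5 signal was not tested. The lower ones were Casp8, the initiator caspase of death receptors, and Opa1, which shapes mitochondrial cristae. Casp8 gave 2541.3, 2166.7 and 2356.1 in garlic-fed mice, against 2762.8, 2746.3 and 2708.9 in control mice, with all garlic-fed spleens below (log2 difference -0.22, adjusted p 0.413). Opa1 gave 1511.5, 1376.8 and 1434.3 in garlic-fed mice, against 1983.2, 1720.1 and 1594.6 in control mice, with all garlic-fed spleens below (log2 difference -0.29, adjusted p 0.363). Its other 2 tested probe sets overlapped between diets and differed by -0.04 and -0.07 (adjusted p 0.950 and 0.948). Dffb, named after its values were seen, passed an unadjusted p of 0.05 only on its dimmer 1421229_at. That probe set differed by -0.65 (adjusted p 0.230), with all garlic-fed spleens below, and the brightest of Dffb by 0.05 (adjusted p 0.955).

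Of the regulators of family genes (20 genes, 18 tested), 0 passed the adjusted threshold (median log2 difference 0.09). Without adjustment, 3 passed 0.05 above the controls and 1 below them, against 5.58% and 5.44% of all probe sets tested. Foxo3, a forkhead factor that raises Bim in other settings, gave 2232.0, 3082.5 and 3082.9 in garlic-fed mice, against 1891.3, 1734.3 and 2021.5 in control mice. The diets did not overlap (log2 difference 0.56 ± 0.13, adjusted p 0.141), and the second Foxo3 probe set 1434832_at differed by 0.51 (adjusted p 0.127). Foxo1, the related factor on the list, lay below 0 on its 3 tested probe sets, at -0.29, -0.09 and -0.15 (adjusted p 0.536, 0.790 and 0.700), with overlapping diets. Gata1 differed by 0.73 (adjusted p 0.143) and the erythropoietin receptor gene Epor by 0.75 (adjusted p 0.226), and both also stand in the erythroid list, whose median log2 difference was 1.00. The lower gene was Ywhaz, a 14-3-3 protein that holds phosphorylated Bad in the cytosol, at -0.20 (adjusted p 0.426). On dimmer probe sets, named after their values were seen, E2f1 and Huwe1 also passed an unadjusted p of 0.05. E2f1 1417878_at differed by 0.72 (adjusted p 0.134) and its brightest by 0.28 (adjusted p 0.527), with all garlic-fed spleens above on both. Huwe1 1424949_at differed by -0.34 (adjusted p 0.427), with all garlic-fed spleens below, and its brightest by 0.04 (adjusted p 0.924).

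**Figure D4:**
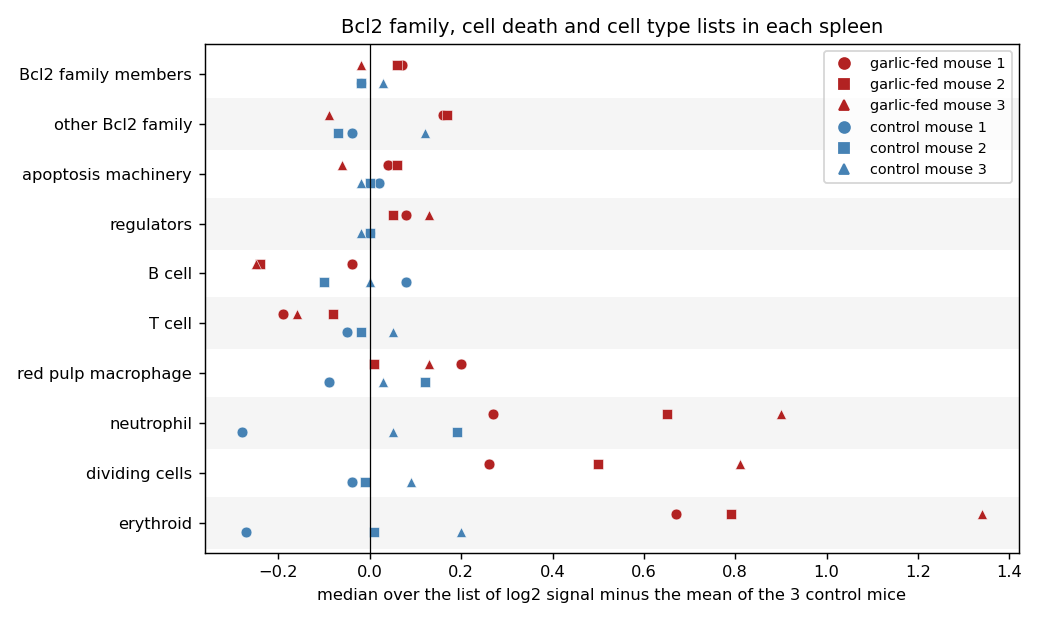
Median over each list of the log2 signal in each spleen, as the distance from the mean of the 3 control mice (x axis), with garlic-fed mice in red above control mice in blue. The Bcl2 family median is over its 28 tested probe sets, several of them of the same gene. Every other list has only the brightest probe set of each gene. The Bcl2 family members stay between -0.02 and 0.07 in every spleen of both diets, whereas the erythroid list lies at 0.67, 0.79 and 1.34 in garlic-fed and at -0.27, 0.01 and 0.20 in control spleens.

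The plot of list medians by spleen sets these values side by side. The family's medians, over its 28 tested probe sets, were 0.07, 0.06 and -0.02 in garlic-fed mice 1 to 3. They were -0.02, -0.02 and 0.03 in control mice 1 to 3, and the diets overlapped. Neutrophil markers (10 tested) had a median log2 difference of 0.57 with 5 higher at an unadjusted p under 0.05, and those of dividing cells 0.49 with 6 of 7. The 5 were Ngp, Camp, Elane, Mpo and Prtn3. S100a8, S100a9 and Mmp8 differed by only 0.20, 0.17 and 0.04, Ltf by 0.55 and Lcn2 by 0.46. B cell and T cell medians were -0.16 and -0.17, with 3 of 8 B cell genes lower at an unadjusted p under 0.05 and 0 of 8 T cell genes. Over all probe sets tested, 5.58% were higher and 5.44% lower at that p. The part of this mix of cells in any family signal was not tested.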

How the data were processed

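Spleens of 3 garlic-fed and 3 control mice were read on 1 array each. The deposited values are intensity values, MAS5 signals that the authors computed per probe set on a linear scale, and the trimmed mean of each array (2% left out at each end) was 500, as read from the values. The MAS5 version and this scaling are not given in the sources used here. After 64 control probe sets were left out, signals were floored at their 20th percentile (23.5) and log2 transformed, and probe sets whose mean on this scale exceeded the 40th percentile (6.08) were kept. These 27022 were fitted with lmFit and eBayes (trend of variance) in limma 3.58.1 under R 4.3.3, with Benjamini-Hochberg adjustment over all of them. The methods' ANOVA was run as an alternative. The script was tested on simulated data.

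Of the 45037 probe sets, 34945 had 1 gene name in the platform annotation, 932 several and 9160 none, and probe sets with several were not used for named genes. All members were named. Other family genes were named at an unadjusted p under 0.05, and machinery and regulator genes at an adjusted p under 0.05 and then by up to 4 with the lowest unadjusted p. Becn1, E2f1, Huwe1 and Dffb were added after their values were seen. Foxo1 was also outside this rule, and was named beside Foxo3 as the related factor on the list. The members and lists were chosen with earlier results of these data known. The labels number the 3 spleens of a group as biological replicates, and these were taken to be separate mice. Alternatives were other scalings, floors, filters and tests, a replicate block, and leaving out arrays.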

Additional observations from a re-analysis of the deposited data

How the results depend on the processing

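No member passed the adjusted threshold under any of 17 alternatives (lowest adjusted p 0.172 among 472 values, since 4 dim probe sets were not tested under the stricter filter). With no trend of variance, with either ANOVA, or without control mouse 1 or 2, 0 of all probe sets passed. Those settings therefore say nothing about the members in particular. The count of members higher at an unadjusted p under 0.05, which was 1, was 2 under median centring, with Bcl2l1 1420888_at added, and 0 with no filter, with no trend of variance, with the ANOVA on log2 or linear signals, and without the most pancreatic array of each group. Leaving out 1 mouse gave 0 to 3, with 0 without control mouse 1 or garlic-fed mouse 2 and 3 without control mouse 3. The count lower, which was 0, was 1 under quantile normalization (Mcl1 1448503_at) and 1 with the replicate block (Bak1 1425716_s_at), and leaving out 1 mouse gave 0 to 3, with 3 without garlic-fed mouse 1 and 2 without garlic-fed mouse 3. The sign turned in 39 of the 472 values, by more than 1 within-group SD in 1, Mcl1 1416881_at under median centring (0.0219). The cause of these moves was not tested.

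Deviations of same-numbered mice correlated at 0.000642, -0.176 and 0.0781 over probe sets, and those of differently numbered mice at -0.154 to 0.159. Replicate numbers thus showed no sign of pairing, but deviations from a mean of 3 arrays are a weak check of it. The replicate block gave 295 calls over all probe sets, against 64 without it, and 0 among members. The cause of that rise was not tested. Over all probe sets the count was 151 under median centring, 85 with the higher floor, 11 with no filter, and 0 with no trend, with either ANOVA, without control mouse 1 and without control mouse 2; leaving out another mouse gave 33 to 111, and leaving out the most pancreatic arrays gave 36. The number of arrays limits the precision.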

Other observations

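Probe sets whose annotation names several genes were left out of the counts. Among them, the brightest of Bcl2a1 (A1), a pro-survival gene family of lymphocytes and neutrophils whose copies share probes, gave 6172.8, 6336.1 and 6322.8 in garlic-fed mice, against 6379.5, 7286.4 and 6711.7 in control mice. All garlic-fed signals were below all control signals, by 6336.1 against 6379.5 at the closest. That order was found in 9.29% of all probe sets tested. On a dimmer Bcl2a1 probe set the signals were 159.1, 147.9 and 102.7 in garlic-fed mice, against 215.4, 113.3 and 150.3 in control mice. The diets overlapped there, as they did on the dimmest. The brightest of Bnip3l, a mitophagy gene of maturing red cells that shares its probes with a pseudogene, gave 7736.4, 7156.2 and 10243.5 in garlic-fed mice, against 7849.8, 7154.4 and 9120.2 in control mice, and the diets overlapped.

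The genes whose centred log2 signals over the 6 spleens lay nearest to Bcl2l11 1456005_a_at were F2rl3, Ccn2, Cped1, Ets2 and Klk8, with root mean square differences of 0.042, 0.053, 0.063, 0.075 and 0.075. Ccn2, the connective tissue growth factor gene, gave 2327.7, 2622.1 and 2257.2 in garlic-fed mice, against 1385.2, 1847.6 and 1991.7 in control mice. These genes were chosen for this likeness, so their order of spleens is no separate result.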
